A study of Homo sapiens with 28 samples.

Results

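Acetylation of histone H3 at lysine 27 (H3K27ac) marks active promoters and active enhancers, and a region that carries it in one cell population and not in another is a candidate for regulatory DNA whose activity differs between them. The regions described here were those with an H3K27ac peak in both lists named EV (empty vector) by their files and by the peak names inside them, and in none of the other 12 lists of the series. Peaks of all 14 lists that overlapped or touched were first merged into 138757 regions, and 13253 of these met the rule, which is 9.55% of all regions. The same 2 lists are titled TAZ4SA replicates 1 and 2 in the sample titles, so under the titles the regions belong to cells with active TAZ and under the file names to control cells. Which naming is right was not tested, and the 2 lists are called EV list 1 (titled TAZ4SA replicate 1) and EV list 2 (titled TAZ4SA replicate 2) below. The presence of peaks chose the regions, so strength and width are given as descriptions, without a test.

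The cells were SW872, an established human liposarcoma line, stably transduced with retrovirus and kept as pooled populations selected with G418. The titles give 7 groups of 2 libraries, described by the study as biological duplicates. The constructs were TAZ4SA, YAP5SA, CAMTA1, TFE3, YAP-TFE3, TAZ-CAMTA1 and the empty vector, all Flag-tagged. The labels state growth close to confluence with an exception for CAMTA1, collected before confluence, while the study's methods name no such exception for the immunoprecipitations. The antibody field of the labels reads H3K27ac, but the protocol text beside it describes only an anti-Flag antibody, and H3K27ac is taken from the field, the titles and the study's methods. TAZ and YAP are transcriptional coactivators that bind DNA through TEAD factors and are held in check by phosphorylation through the Hippo pathway. TAZ4SA and YAP5SA carry serine-to-alanine changes that let them escape this inhibition, TAZ-CAMTA1 and YAP-TFE3 are fusion proteins found in epithelioid hemangioendothelioma, a vascular sarcoma, and the CAMTA1 and TFE3 constructs express the unfused partners. In all 14 lists the construct in the file name differed from that in the title, while both lists of a title shared one file-name construct. By file name, the lists titled TAZ-CAMTA1, CAMTA1, YAP5SA and TFE3 were TAZ4SA, TC, TFE3 and YT, in that order. Those titled empty vector and YAP-TFE3 were CAMTA1 and YAP5SA. TC and YT are the study's short forms of TAZ-CAMTA1 and YAP-TFE3. Apart from the EV-named lists, lists are called by their titles below. EV list 1 held 102009 peaks and EV list 2 held 98992. The other 12 lists held between 5721 and 57505 peaks, so both lists that define the regions were longer than any other. Read totals were not used here.

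A peak list records where the enrichment passed the caller's limit, and a region without a peak in the other 12 lists can still hold acetylation below that limit. EV list 1 included peaks down to a −log10 p of 2.60 and EV list 2 down to 2.69. In the other lists the lowest −log10 p ran from 2.94 to 4.24, so their limits for a call were stricter. Of the 13253 regions, 7410 (55.9%) had a peak at or above 4.24 in both EV-named lists, the lowest value in the strictest list. Each list was called separately and read totals were not used, so an equal −log10 p in different lists need not mean equal enrichment.

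The EV-only regions had lower summits than the regions that another list also held. In EV list 1 the summit fold, the height of a peak's summit over its local background, ran from 2.01 to 16.4 with a median of 3.67, and the middle 50% of regions lay between 3.12 and 4.41. In EV list 2 it ran from 2.13 to 14.7 with a median of 3.72, and the middle 50% lay between 3.28 and 4.40. The medians of both lists were close, but each list was called separately. The 35129 regions that both EV-named lists held together with at least 1 other list had a median fold of 7.87 in EV list 1 and 7.24 in EV list 2. The middle 50% of these lay between 4.72 and 15.8 in EV list 1 and between 4.64 and 13.6 in EV list 2, above the middle 50% of the EV-only regions, while the full ranges overlapped. The fold and the −log10 p together give the number of fragments at the summit, which came out whole for all 13253 regions in both lists within a tolerance of 0.001 in −log10 p. In EV list 1 the EV-only regions had a median of 13 fragments at the summit, with the middle 50% between 11 and 16, over a median background of 2.46. In EV list 2 the median was 10 fragments, with the middle 50% between 8 and 12, over a background of 1.74. Counts of this size carry a large counting error of their own.

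**Figure D1:**
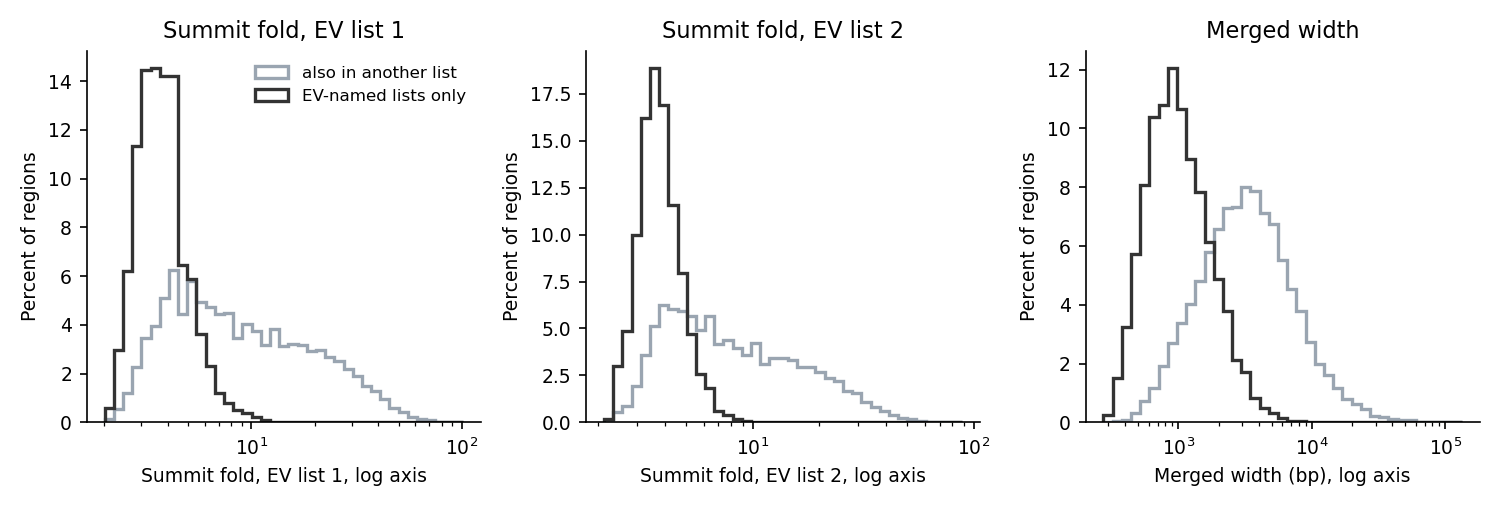
Distributions of summit fold in EV list 1 (left), summit fold in EV list 2 (middle) and merged width in bp (right), all on log axes, as the percent of regions in each bin. The black line is the 13253 EV-only regions and the grey line the 35129 regions that at least 1 other list also held, and the black line sits to the left in each panel, with medians of 3.67 against 7.87, 3.72 against 7.24 and 951 bp against 3191 bp.

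Ranked within their own list by −log10 p, the EV-only regions lay lower than the regions that another list also held. Their median rank was 54170 of the 102009 peaks of EV list 1 (53.1% of the way down) and 61592 of the 98992 peaks of EV list 2 (62.2% of the way down), against 18.1% and 20.1% for the regions with another list. Counted against the full lists, the medians were 25.6% and 30.1% at a −log10 q of at least 5 in all lists and 34.9% and 40.3% with the EV-named lists reduced to their 57505 strongest peaks, and both settings lower them by construction because weak peaks are dropped. The limit in all lists also drops weak peaks of the other lists, so regions that those lists held below the limit were counted there. A single region in each list reached the strongest 10% of peaks, and 0 reached it in both. The stronger 50% of peaks held 45.4% of the regions in EV list 1 and 32.5% in EV list 2, with 20.1% of the regions in the stronger 50% of both. A −log10 q of at least 5 was met by 4603 regions in EV list 1 and 2851 in EV list 2. The share of EV-only regions among all regions held by both EV-named lists rose with falling rank. Between 10% and 20% of the way down EV list 1 it was 3.22%, between 30% and 40% it was 39.3%, and in the weakest 10% it was 70.6%. In EV list 2 the same bands gave 1.08%, 30.8% and 70.1%.

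The regions were also narrow. Merged width ran from 275 bp to 8862 bp with a median of 951 bp, and the middle 50% lay between 670 bp and 1431 bp. The median was 422 bp without EV list 1 and 487 bp without EV list 2, where a peak in the remaining list was enough. A width over 3000 bp was reached by 3.43% of the EV-only regions and by 53.1% of the regions that another list also held. Width also rose with rank, and the gap was present within bands of equal rank. Between 30% and 40% of the way down EV list 1 the median width was 1230 bp for EV-only regions and 2115 bp for the others, while the median folds were 4.41 and 4.47. In the same band of EV list 2 the widths were 1256 bp and 2251 bp at a median fold of 4.95 in both. Most EV-only regions were simple, and 11651 of 13253 (87.9%) consisted of a single peak in each list. A merged region held by more lists is the union of more intervals, so part of its width comes from the merging itself.

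The number of other lists with a peak ordered the regions of the EV-named lists along one scale, with the EV-only regions at its lower end. Both EV-named lists held 48382 regions (34.9% of all), and the EV-only regions made up 27.4% of these. With 1 other list the median fold was 4.09 in EV list 1 and 4.13 in EV list 2, and the median width was 1349 bp. With 6 other lists the folds were 6.21 and 5.78 and the width 2932 bp. With all 12 they were 28.5 and 23.9, and the width was 6732 bp. Each further list went with a higher median fold in both EV-named lists and a greater median width, and the EV-only regions continued this order in strength and width.

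**Figure D2:**
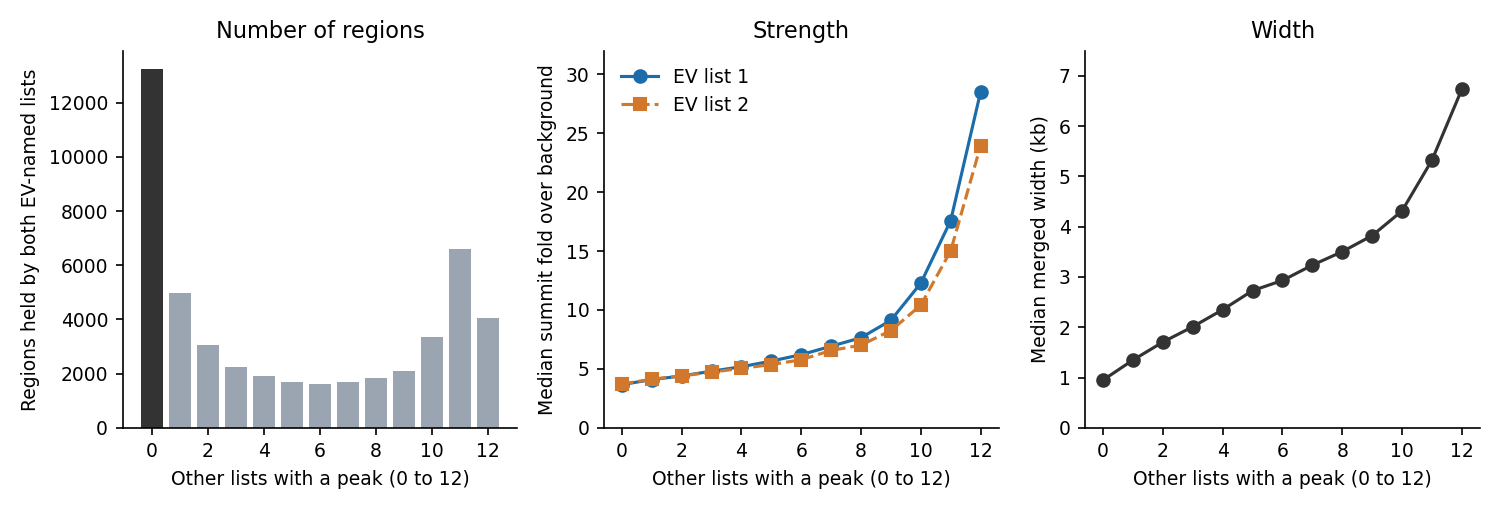
Regions held by both EV-named lists, grouped by the number of the other 12 lists with a peak in the region (horizontal axis). The left panel gives the number of regions, with the 13253 EV-only regions in black, the middle panel the median summit fold in each EV-named list, and the right panel the median merged width in kb. The EV-only regions, at 0 other lists, have the lowest medians, and all the medians rise up to 12 other lists.

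The boundary of the rule was equally gradual. At its inner edge, the weakest region by its better rank was chr2:43320658-43321075 (GRCh37/hg19, as all coordinates here), 418 bp wide. Its fold was 2.45 with 7 summit fragments in EV list 1 and 2.43 with 8 in EV list 2, and a region with a peak in another list lay 129 bp away. Just outside the rule were 4963 regions that a single other list held in addition. The strongest of these was chr12:132111079-132112333, with a fold of 14.3 in EV list 1 and 20.9 in EV list 2, and its additional peak was in the list titled TAZ-CAMTA1 replicate 2. It lay above every EV-only region in the weaker of its 2 ranks, at 4.35% of EV list 1 and 1.61% of EV list 2.

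The 4963 regions with 1 additional list were unevenly spread over the other 12 lists. The lists titled CAMTA1 replicate 1, TFE3 replicate 2, YAP-TFE3 replicate 1 and TAZ-CAMTA1 replicate 2 held 887, 822, 802 and 752 of them, and these 4 lists had between 47308 and 57505 peaks. The list titled empty vector replicate 2, with 49855 peaks, held 577, and empty vector replicate 1, with 42841 peaks, held 293. The lists with at most 31280 peaks held 349 (YAP5SA replicate 1), 183 (CAMTA1 replicate 2), 121 (YAP5SA replicate 2), 26 (TAZ-CAMTA1 replicate 1) and 1 (TFE3 replicate 1), and YAP-TFE3 replicate 2, with 39653 peaks, held 150. The partner lists of a title could thus differ widely, as in the 752 and 26 regions of TAZ-CAMTA1. Longer lists tended to hold more of these regions, but not in strict order. YAP5SA replicate 1, with 31086 peaks, held more than empty vector replicate 1 and YAP-TFE3 replicate 2. Per 100 peaks the counts ran from 0.0175 (TFE3 replicate 1) to 1.85 (CAMTA1 replicate 1). The part of list length in these counts was not tested.

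Agreement between EV list 1 and EV list 2 was then examined, because the rule demands a peak in both. Together they held 69418 regions without a peak in the other 12 lists. EV list 1 alone held 35230 of these, EV list 2 alone held 20935, and 13253 (19.1%) were in both. Of the regions of EV list 1 that no other construct's list held, 27.3% were also in EV list 2, and in the reverse direction it was 38.8%. Regions in one EV-named list alone were weaker and narrower still, with a median fold of 3.15 and a width of 433 bp in EV list 1 and 3.32 and 366 bp in EV list 2. Each EV-named list thus lacked most of the regions that its partner held and the other 12 lists did not.

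Recovery in the partner followed rank. For peaks of EV list 1 without a peak in the other 12 lists, the partner held 96.2% of those between 10% and 20% of the way down, 75.7% in the next 10% of the list, 49.0% between 30% and 40%, and 15.4% in the weakest 10%. For peaks of EV list 2 it held 98.9%, 85.5%, 66.2% and 25.3% in the same bands. Regions of these bands that at least 1 of the other 12 lists also held were recovered more often, in 99.8%, 95.2%, 81.2% and 43.0% of cases for EV list 1. For EV list 2 the values were 98.6% between 20% and 30%, 92.8% between 30% and 40%, and 55.1% in the weakest 10%. The gap was narrow between 10% and 20% of the way down either list, clear between 20% and 30%, and wider beyond 30%. A region that another list also held is the union of more intervals, so part of the gap can come from the merging itself. How large that part is was not tested.

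**Figure D3:**
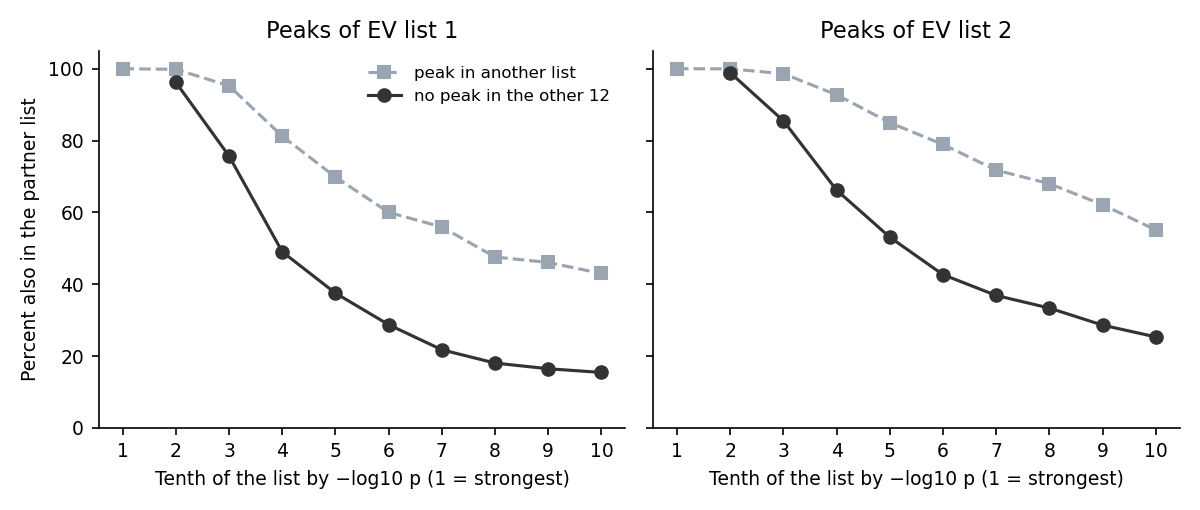
Percent of the regions of EV list 1 (left) and EV list 2 (right) that the partner list also held, in 10 equal bands of the list ranked by −log10 p, with 1 the strongest. Black circles are regions without a peak in the other 12 lists and grey squares are regions with one, and the first black point is left out in both panels because that band held 1 such region. Black points fall from 96.2% to 15.4% in EV list 1 and from 98.9% to 25.3% in EV list 2, below the grey points throughout.

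Within the 13253 regions, both lists placed their summits at a median distance of 237 bp from each other. The distance was under 200 bp in 44.2% of regions and over 1000 bp in 5.25%. The merging requires a peak of EV list 1 to overlap or touch a peak of EV list 2 in every region, which itself keeps the summits close. A fold within 1.5 times of the other list's was found in 84.0% of regions. Across regions the order of strength was shared only loosely, with a Spearman rho of 0.29 for −log10 p over the 13253 EV-only regions, against 0.92 over the 35129 others. These points come from the same 2 libraries and are not independent, and the EV-only regions span a much smaller range of values.

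The strongest EV-only regions, taken as the 10 best by the rank of their weaker list, had folds above the EV-only median in both lists, except a region on the contig GL000193.1 described further on. First was chr2:102071138-102074097, 2960 bp wide, with a fold of 12.6 and 39 summit fragments over a background of 2.18 in EV list 1, and 11.6 and 36 fragments over 2.18 in EV list 2. Its summits were 2 bp apart. A region with a peak in another list lay only 300 bp from it. By contrast, chr1:116694405-116695258 stood alone, at 74738 bp from the nearest such region, with folds of 10.4 and 10.3 and 32 and 24 summit fragments. The region chr9:109180732-109185378 was 4647 bp wide, with folds of 9.36 and 14.7, and it lay 54020 bp from any region of another list. These 3 show that a strong EV-only region could adjoin acetylated chromatin of the other lists or lie far from it.

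Of the others among the 10, some had nearly equal folds in both lists and some did not. The region chr7:142461227-142462196 had folds of 9.94 and 10.1, and another EV-only region lay 522 bp from it. The widest of the 10 was chr20:38271448-38277170, 5723 bp, with folds of 11.04 and 10.1. On chromosome 16, chr16:31438973-31440228 had 13.7 and 9.31, and chr16:66303026-66304750 had 7.14 and 13.4. These chromosome 16 regions differed between the lists in opposite directions. The remaining regions on assembled chromosomes were chr1:203236561-203237038, with folds of 11.96 and 9.91, and chr19:9473056-9474677, with 9.69 and 9.56.

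The second best by rank was of another kind. It lay on the contig GL000193.1 from 88886 to 89327, 442 bp wide, with folds of only 3.42 and 3.14. It had 143 and 121 fragments at the summit, but over backgrounds of 41.1 and 37.9, far above the 2.46 and 1.74 that were typical of the EV-only regions. The widest EV-only region of all, chr10:134220704-134229565, was 8862 bp wide with folds of 10.1 and 8.26, built from 2 peaks in EV list 1 and 4 in EV list 2.

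EV-only regions were spread over every chromosome from 1 to 22 and X, which held 13245 of them, and 8 lay elsewhere. Chromosome 1 held the most, 1122, and chromosome 21 the fewest, 163. Set against the regions that both EV-named lists held on the same chromosome, the EV-only share was highest on chromosome 20, at 34.8% of 1826 regions, and on chromosome 16, at 33.0% of 2072. Chromosomes 19 (31.4%), 22 (31.2%), 17 (31.1%) and 11 (31.1%) followed. The lowest shares were on chromosome 13, at 20.4% of 814 regions, chromosome 4, at 21.7% of 1560, chromosome X, at 22.1% of 1292, and chromosome 15, at 22.6% of 1519. The median fold in EV list 1 was 3.46 on chromosome 20, 3.55 on chromosome 16, 3.51 on chromosome 13 and 3.78 on chromosomes 4 and X. In EV list 2 it was 3.48, 3.68 and 3.72 on chromosomes 20, 16 and 13, 3.72 on chromosome 4 and 4.10 on chromosome X. The median width varied little, from 892 bp to 1047 bp between chromosomes.

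**Figure D4:**
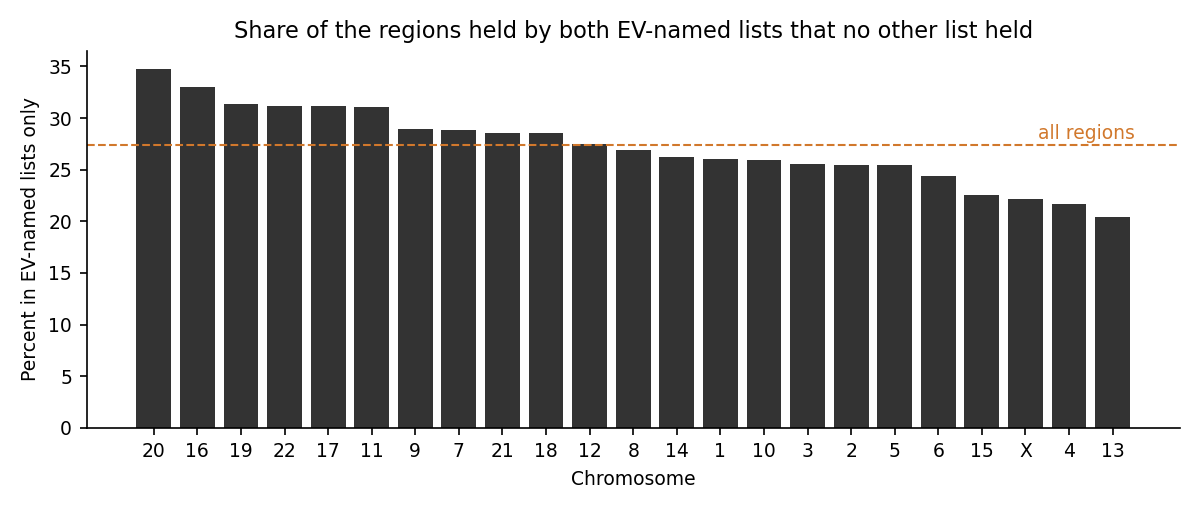
Percent of the regions held by both EV-named lists that no other list held, for chromosomes 1 to 22 and X in falling order, with bars starting at 0 and the dashed line at 27.4%, the value for all regions. The bars run from 34.8% on chromosome 20 to 20.4% on chromosome 13.

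Along the chromosomes the EV-only regions lay close to chromatin that other lists also called acetylated. The nearest region with a peak in another list was at a median of 1466 bp, within 1 kb for 43.6% of the EV-only regions and within 10 kb for 82.4%. Only 97 (0.732%) lay more than 100 kb from any such region. Regions held by all 14 lists were farther off, at a median of 87512 bp, and 5.27% of the EV-only regions had one within 1 kb. Regions held by all 14 lists were also few, at 4061. The regions of EV list 1 alone and of EV list 2 alone were at median distances of 2552 bp and 1827 bp from a region of another list.

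Distance went with a modest difference in strength. The 5780 EV-only regions within 1 kb of another list's region had median folds of 3.52 in EV list 1 and 3.72 in EV list 2, and those 10 kb to 100 kb away, 2239 in number, had 4.09 and 3.85. For the 97 farther than 100 kb the medians were 4.23 and 3.78. Median width was 950 bp, 981 bp and 869 bp in these classes. The difference was thus seen in EV list 1 and was slight in EV list 2. Looked up after its value had been seen, the most isolated region on chromosomes 1 to 22 and X was chr4:135122538-135122999, 462 bp wide, which lay 3848654 bp from any region of another list and 125229 bp from the next EV-only region, with folds of 3.80 and 4.54.

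**Figure D5:**
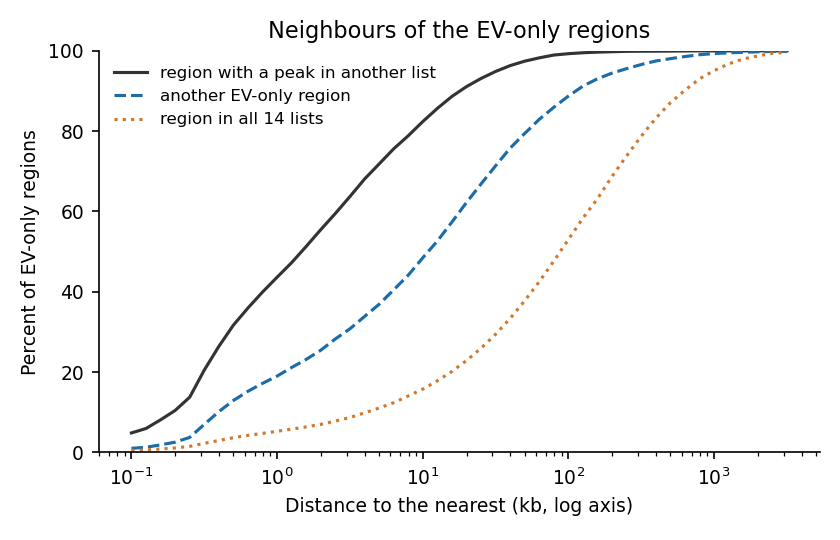
Cumulative percent of the EV-only regions whose nearest neighbour lies within a given distance in kb (log axis), for regions with a peak in another list (black, solid), other EV-only regions (blue, dashed) and regions in all 14 lists (orange, dotted). The black curve lies highest, with a median of 1466 bp, the blue one has a median of 10804 bp, and the orange one, with 87512 bp, lies lowest.

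Distances among the EV-only regions themselves were longer. The nearest other EV-only region was at a median of 10804 bp, and 48.5% had one within 10 kb, against 60.7% for the regions shared with another list measured among themselves. The share of 48.5% fell to 23.4% at a −log10 q of at least 5 in all lists, which also counts regions with weaker peaks in other lists. It fell to 21.7% with the EV-named lists reduced to their 57505 strongest peaks, and to 26.5% with peaks within 1000 bp merged. It was 76.5% without EV list 1 and 78.2% without EV list 2, where a peak in the remaining list was enough and more regions met the rule. Joined where less than 10 kb apart, 6419 of the 13253 regions (48.4%) fell into 2485 clusters, and 6834 stood alone. Most clusters were small, with 1611 pairs and 546 groups of 3, and 131 clusters held 5 or more. The largest had 17 EV-only regions over 65148 bp, at chr20:62378980-62444127, with only 2 regions of other lists inside it. The next had 10 over 36166 bp, at chr1:158019584-158055749. Clusters of 9 lay at chr19:2218119-2245132, chr18:52894918-52925032 and chr16:85241775-85293161. For comparison, the regions that both EV-named lists shared with another list lay closer together, at a median of 5649 bp, and they were more numerous.

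In windows of 1 Mb the number of EV-only regions varied widely. Of 2600 windows with any merged region on chromosomes 1 to 22 and X, 1747 held an EV-only region, and the median was 2. A set of 498 windows with 10 or more held 63.2% of the EV-only regions and 43.0% of the regions that the EV-named lists shared with others. Since these windows were picked by their number of EV-only regions, the first share is high by construction. The fullest window, 85 to 86 Mb on chromosome 16, held 46 EV-only regions among 79 that both EV-named lists held (58.2%). The windows at 62 to 63 Mb on chromosome 20 and 132 to 133 Mb on chromosome 9 held 42 each, of 71 and of 96. Windows at 11 to 12 Mb on chromosome 16, 12 to 13 Mb on chromosome 2 and 24 to 25 Mb on chromosome 22 held 38 each. These windows too were picked by their number of EV-only regions.

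The window on chromosome 20 lay at a chromosome end, and the position relative to chromosome ends was examined for all regions. Within 5 Mb of the outermost merged region at either end of a chromosome lay 13.7% of the EV-only regions, 10.8% of the regions shared with other lists, and 11.02% of all merged regions. Within 2 Mb the shares were 6.44%, 4.69% and 4.77%. The excess was small, and no test was made because regions are not independent.

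Other pairs of lists gave far fewer exclusive regions. Under the sample titles the empty vector pair, whose files are named CAMTA1, held 49 regions that no other list held, 0.232% of the 21103 it held in both lists and 0.0353% of all merged regions. These had a median width of 502 bp and median folds of 3.54 and 3.27. The pair titled YAP-TFE3, named YAP5SA by its files, had 542 (2.38% of 22743 and 0.391% of all merged regions), with a median width of 776 bp and folds of 3.93 and 3.66. The pairs titled TAZ-CAMTA1, CAMTA1, YAP5SA and TFE3 had 22, 16, 5 and 0, which is 0.0159%, 0.0115%, 0.0036% and 0% of all merged regions. The median rank of the regions exclusive to the YAP-TFE3 pair was 52.2% in its first list and 73.1% in its second, against 53.1% and 62.2% for the EV-only regions. They lay elsewhere, with a median of 170762 bp to the nearest EV-only region. They also lay farther from regions of other lists, with 9.23% of the 542 more than 100 kb away, against 0.732% of the EV-only regions.

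How many regions met the rule depended on how long the lists were allowed to be. When the EV-named lists were reduced to their 57505 strongest peaks, the length of the longest other list, 3853 regions met it. With all 14 lists reduced to 5721 peaks, the length of the shortest, 121 did. At a −log10 q of at least 5 in the EV-named lists, with the other 12 lists whole, 1682 remained. The count thus fell with shorter EV-named lists under each of these settings, one of which also shortened the other 12 lists, and list length and construct cannot be told apart here.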

How the data were processed

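H3K27ac chromatin immunoprecipitation sequencing was available as 14 peak lists of SW872 cells. Input libraries (14 in the labels) were not analysed here. According to the methods, the authors used Atropos 1.1.16 for trimming and BWA-MEM for alignment to GRCh37/hg19. Reads with several alignments and greylisted regions were dropped, and MACS2 called the peaks from paired ends. The methods describe pooled replicates and a looser q limit, whereas each list here is of 1 library and its q-values reach at most 0.05. Per deposited line, the authors' caller wrote a summit fold (a ratio to local background), the p-value and the q-value, both as −log10, and the summit's position. Each list was called separately and not scaled to the others, so values of both EV-named lists are set side by side as deposited.

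Peaks that overlapped or touched were merged. Strength was that of the peak with the highest −log10 p in a region, and ranks were by −log10 p. Summit fragments were solved from fold and p (a Poisson tail). Groups followed the sample titles, and membership the file names. Regions named were the 10 best by the rank of their weaker list, the widest, the weakest, the strongest with 1 other list, and the fullest 1-Mb windows and clusters (less than 10 kb apart) with ties. Members, lists and rules were chosen with earlier results of these data known. No genome or annotation of GRCh37/hg19 was used, so genes and sequences are not given, and the cell line was not checked against marker genes. No test was run, since peak presence chose the regions. On simulated data, merging matched a base-by-base count in 20 of 20 runs and 1016 of 1016 summit counts were recovered. Alternatives were stricter q limits, shorter lists, other merging rules, other pairs, and each library left out. Python 3.11.15, numpy 2.4.6, pandas 2.3.3, scipy 1.17.1 and matplotlib 3.10.9 were used.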

Additional observations from a re-analysis of the deposited data

How the results depend on the processing

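Against 13253 regions as reported, the count was within 1.5 times at a q of at most 0.01, on chromosomes 1 to 22 and X, with touching peaks kept apart, and where the peaks of both lists had to overlap by at least 50%. It moved further at a −log10 q of at least 5 in all lists (4790), in the EV-named lists only (1682), with all lists at the length of the shortest (121), with the EV-named lists at the length of the longest other list (3853), and with peaks within 1000 bp merged (7039). Chosen after seeing the data, a margin of 1000 bp to any other list left 7473 regions and one of 10 kb left 2337. With another pair in place of the EV-named pair it was 542 (YAP-TFE3), 49 (empty vector), 22 (TAZ-CAMTA1), 16 (CAMTA1), 5 (YAP5SA) and 0 (TFE3), by title. Leaving out 1 library gave 13254 to 51892. The 12 counts without another list stayed at or below 14212, and the high ones were 43690 without EV list 1 and 51892 without EV list 2, since a peak in the remaining list then sufficed. Shorter lists hold fewer peaks by construction, and any further cause was not tested.

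Median fold was 5.54 and 5.37 in EV lists 1 and 2 at a −log10 q of at least 5 in all lists, and width was then 2001 bp. This setting also drops weak peaks of the other lists, so regions that those lists held below the limit were counted. It gave 4790 regions, against 1682 with the other lists whole, so these medians are not those of EV-only regions alone. With 1000 bp merging, 26.5% of regions had another within 10 kb, against 48.5% as reported. No paired analysis was possible because no result comes from a test.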

Other observations

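The longest runs of EV-only regions without any region of another list between them were looked up after the other values had been seen. A run of 9 at chr5:66660079-67029682 extended over 369604 bp, inside a stretch of 408388 bp in which the other 12 lists had no peak, with median folds of 4.77 in EV list 1 and 4.06 in EV list 2. A run of 9 at chr20:62407253-62437290 was far denser, over 30038 bp, with median folds of 4.05 and 3.46, and forms part of the largest cluster. Of 4 runs of 8, those named here lay at chr1:158030850-158055749, chr7:1932426-1959968 and chr12:116188814-116240125, the last of these with median folds of 5.07 and 3.87. Of all runs, 7176 consisted of 1 region.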
